A study of Mus musculus with 14 samples.

Results

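The 10 genes described here belong to the epithelial-mesenchymal transition (EMT), the change in which cells of a sheet loosen their junctions and become motile. They were followed in mouse embryonic stem (ES) cells made to differentiate in floating aggregates called embryoid bodies, where mesoderm and the precursors of blood and endothelium arise. The genes were chosen by name, with earlier results of these arrays known. They comprise the epithelial adhesion genes Cdh1 (E-cadherin) and Epcam, the mesenchymal cadherin genes Cdh2 (N-cadherin) and Cdh11, the intermediate filament gene Vim (vimentin), and the transcription factor genes Snai1, Snai2, Twist1, Zeb1 and Zeb2. All 10 were measured, among 19938 genes with a probe set of 1 symbol. Each had exactly 1 such probe set, and 3 further probe sets that join Cdh11 with other symbols were not used.

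Doxycycline at 1 µg/ml was added from day 2 of differentiation to switch on ER71, whose gene is Etv2, and GATA2, and the sample titles add Scl, whose gene is Tal1. The groups were cells induced for 6 h against untreated cells of day 2.25 (1 array each), cells induced for 12 h against untreated cells of day 2.5 (3 arrays each), and cells induced for 24 h against untreated cells of day 3 (3 arrays each). The line iEGS gave replicates 1 and 2, and iB1 gave replicate 3. All groups, controls included, came from these inducible lines, grown beforehand with PMEF feeder cells, and the labels call the untreated cells wild-type. The series asks which genes follow the factors on the way to the hemangioblast. Whether a line is 1 clone is not given in the sources used here. An effect of doxycycline itself cannot be told apart from that of the factors. Values are log2 signals from the authors' RMA processing, and all differences are on that log2 scale. A gene is said to have risen or fallen where limma, fitted on the 12 arrays of the 3-array groups and adjusted over all 19938 genes, gave an adjusted p under 0.05. Errors of changes are limma standard errors (SE).

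E-cadherin joins epithelial cells through calcium-dependent contacts that are anchored to actin by catenins. Factors of the Snail, Zeb and Twist families repress Cdh1 in many systems by binding E-boxes, and N-cadherin often appears as E-cadherin is lost, which is called the cadherin switch. In the mouse embryo this transition takes place in the primitive streak, where epiblast cells ingress to form mesoderm and where Snai1 is needed. Endothelial cells hold together through another cadherin, VE-cadherin (Cdh5).

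Correlations between arrays across genes ran from 0.951 to 0.995, and the lowest mean correlation with the other arrays, 0.966, was that of induced 24 h replicate 3. That array also had the narrowest signals, with an SD across genes of 1.91, against 2.04 to 2.23 on the others. Gata2 was higher in induced than in control cells by 4.44 ± 0.179 (SE) at 12 h and 3.95 ± 0.179 at 24 h (limma adjusted p = 1.07e-08 and 1.09e-08), Etv2 by 3.11 and 1.94, and Tal1 by 2.48 and 2.30. Precision is limited by how many arrays there are.

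After 24 h of induction, 6 of the 10 genes had fallen and 1 had risen against the day 3 control, where 5.46% of all genes were called in either direction (3.43% lower and 2.03% higher). The fallers were Cdh2, Cdh11, Snai1, Twist1, Cdh1 and Epcam. Zeb2 rose. Vim, Snai2 and Zeb1 did not pass. The arrays of the groups did not overlap for these 7 called genes (18.5% of all genes had no overlap in either direction, 7.60% higher and 10.9% lower). The median change of the 10 genes was -0.69, against -0.0040 for all genes. Since the genes were picked with results known, these counts and the median describe them and do not set them apart from other genes. Epithelial and mesenchymal cadherin genes were thus lower side by side, with no gain of Cdh2 where Cdh1 was lower. RNA came from whole cultures, in which fewer cells of a type and less RNA per cell cannot be told apart.

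**Figure D1:**
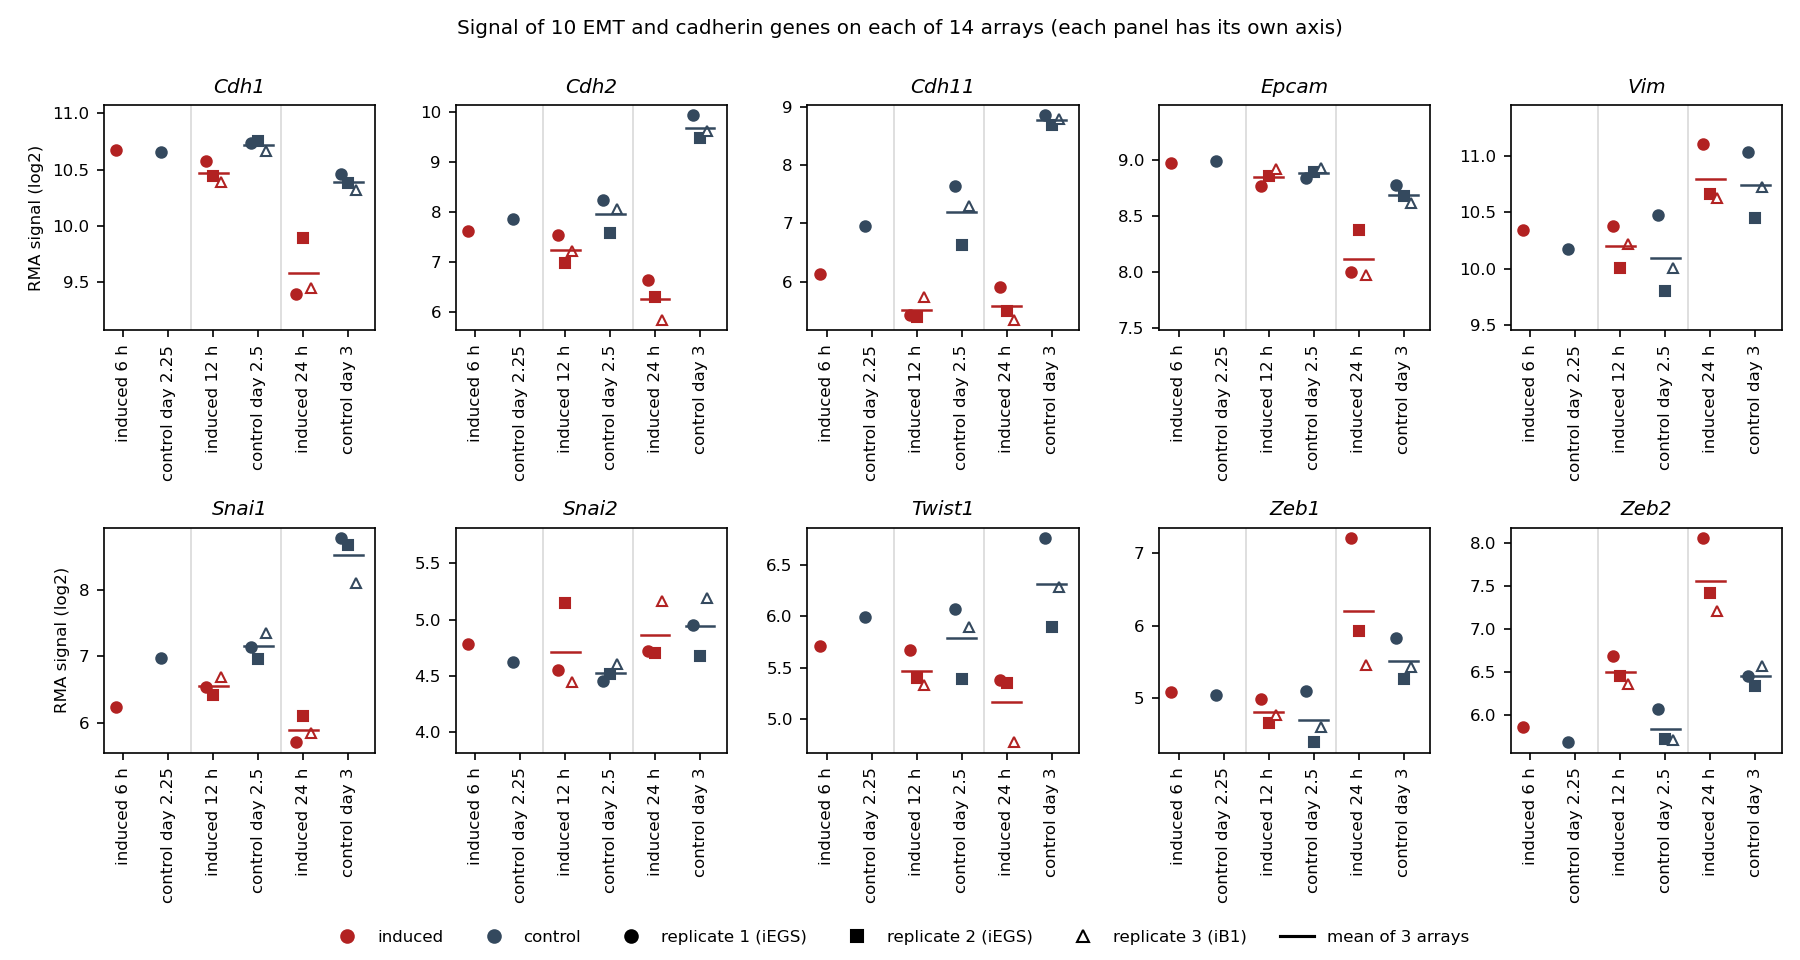
Signal (log2, vertical axis) of the 10 genes on each of the 14 arrays, in induced (red) and control (dark) groups of the same day, with a line at the mean of 3 arrays and open triangles for the line iB1. Each panel has its own axis. On the day 3 arrays the induced values of Cdh2 lie between 5.85 and 6.64, all below the control values of 9.48 to 9.92, while those of Zeb2 lie above the controls.

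Cdh1, the core adhesion gene of epithelia and of ES cells, had signals of 9.39, 9.89 and 9.45 in cells induced for 24 h, against 10.46, 10.38 and 10.31 in the day 3 control. All induced arrays lay below all control arrays. The fall was 0.81 ± 0.146, or 1.75-fold (limma adjusted p = 0.00308). After 12 h the values were 10.58, 10.45 and 10.39 in induced cells, against 10.73, 10.75 and 10.66 in the day 2.5 control. These groups did not overlap either, but the difference of -0.24 did not pass (adjusted p = 0.976). Within the induced cells Cdh1 was lower at 24 h than at 12 h by 0.89 ± 0.146 (adjusted p = 0.00532), while in the controls the change of day 3 against day 2.5, -0.33, did not pass (adjusted p = 0.699). The 24 h fall was not called without replicate 3 (-0.78, adjusted p = 0.0941). The later fall within induced cells was not called without replicate 2 (adjusted p = 0.0842), without replicate 3 (0.158) or in a fit of the compared groups alone (0.0779).

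Epcam encodes an epithelial surface protein that ES cells also carry. Its signals were 8.0, 8.37 and 7.98 in cells induced for 24 h, against 8.78, 8.67 and 8.61 in the day 3 control, with no overlap. It fell by 0.57 ± 0.137 (1.49-fold, limma adjusted p = 0.0221). At 12 h it stood at 8.76, 8.86 and 8.91 in induced cells and at 8.84, 8.89 and 8.93 in control cells, which overlapped (-0.04, 95% interval -0.33 to 0.25). Its 24 h call was lost under 6 of 11 alternatives. These were leaving out replicate 1 (adjusted p = 0.135), replicate 2 (0.113), replicate 3 (0.263) or the induced 24 h array of replicate 3 alone (0.0663), fitting only the compared groups (0.136), and normalizing the arrays again (0.0954). The size of the fall ranged from 0.44 to 0.71 over the 11. Epcam was also lower in induced cells at 24 h than at 12 h, by 0.73 ± 0.137 (limma adjusted p = 0.0131). That was not called without replicate 1 (0.0517), replicate 2 (0.16) or replicate 3 (0.373), or in a fit of the compared groups alone (0.122).

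Cdh2, which encodes the cadherin of mesoderm and neural cells, had the largest 24 h change of the 10. Cells induced for 24 h had signals of 6.64, 6.31 and 5.85, against 9.92, 9.48 and 9.62 in the day 3 control. The fall was 3.41 ± 0.224, or 10.6-fold (limma adjusted p = 4.00e-07). After 12 h the induced values were 7.54, 6.99 and 7.22, against 8.23, 7.58 and 8.06 in the control. All induced arrays were below all controls at 12 h, and the difference of -0.71 ± 0.224 did not pass (adjusted p = 0.239). It passed with the replicate number as a block (adjusted p = 0.0275).

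The day 3 control was itself high for this gene. In untreated cells Cdh2 was 1.72 ± 0.224 higher on day 3 than on day 2.5 (3.30-fold, limma adjusted p = 0.00160), and within induced cells it was 0.98 ± 0.224 lower at 24 h than at 12 h (1.97-fold, adjusted p = 0.0401). The effect of induction was larger at 24 h than at 12 h by 2.70 ± 0.317 (adjusted p = 0.00211). The 6 groups ran from the day 3 control, at a mean of 9.68 ± 0.226 (SD, n = 3), through the day 2.5 control at 7.96 ± 0.337 (SD, n = 3), the day 2.25 control at 7.86, 6 h at 7.62 and 12 h at 7.25 ± 0.278 (SD, n = 3), to 24 h at 6.27 ± 0.394 (SD, n = 3). The day 2.25 control lay within the range of the day 2.5 control. The fall within induced cells was not called without replicate 2 (adjusted p = 0.237), without replicate 3 (0.548), without the induced 24 h array of replicate 3 (0.143), with each array centred on its median (0.0567), or in a fit of the compared groups alone (0.128). The rise in the controls and the difference between the effects were not called without replicate 2 (adjusted p = 0.107 and 0.121) or without replicate 3 (0.0630 and 0.127).

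Cdh11, a cadherin gene of mesenchyme, was the only one of the 10 called at 12 h in this fit, where 1.39% of all genes were called (0.813% higher and 0.577% lower). Its signals were 5.43, 5.39 and 5.73 in cells induced for 12 h, against 7.64, 6.63 and 7.29 in the day 2.5 control. The fall was 1.68 ± 0.223, or 3.19-fold (limma adjusted p = 0.000715), and it was called under all 11 alternatives (highest adjusted p = 0.0424). Among these, the mean of probe sets and leaving out the induced 24 h array of replicate 3 could not change its 12 h values. After 24 h the values were 5.91, 5.50 and 5.34, against 8.86, 8.69 and 8.80 in the day 3 control. That fall was 3.20 ± 0.223, or 9.17-fold (adjusted p = 6.18e-07). Within induced cells 24 h minus 12 h was 0.07, with overlapping arrays and a 95% interval of -0.41 to 0.55. The control on day 3 was 1.59 ± 0.223 higher than on day 2.5 (3.01-fold, adjusted p = 0.00265), which was not called without replicate 2 (0.135) or without replicate 3 (0.121). The larger effect at 24 h than at 12 h (by 1.52 ± 0.315) did not pass (adjusted p = 0.0584). It passed under 5 of 10 alternatives, among them the replicate block (0.00892) and leaving out replicate 1 (0.0130).

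With the replicate number as a block, 3 of the 10 genes passed at 12 h in place of 1, and 441 of all genes in place of 277. The added genes were Cdh2 and Zeb2. At 12 h the arrays did not overlap for 5 of the 10 genes, with Cdh1, Cdh2, Cdh11 and Snai1 lower and Zeb2 higher (14.5% of all genes had no overlap, 6.78% higher and 7.72% lower).

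Vim, the filament gene most used as a mesenchymal marker, had signals of 11.11, 10.66 and 10.63 in cells induced for 24 h, against 11.04, 10.45 and 10.73 in the day 3 control. The groups overlapped, and the difference was 0.06 with a 95% interval of -0.38 to 0.50. At 12 h the difference was 0.11 (-0.34 to 0.55). Both intervals leave out a change of 1 on the log2 scale, that is 2-fold. Vim was 0.64 higher on day 3 than on day 2.5 in the controls and 0.60 higher at 24 h than at 12 h in induced cells, and neither passed (adjusted p = 0.309 and 0.212).

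**Figure D2:**
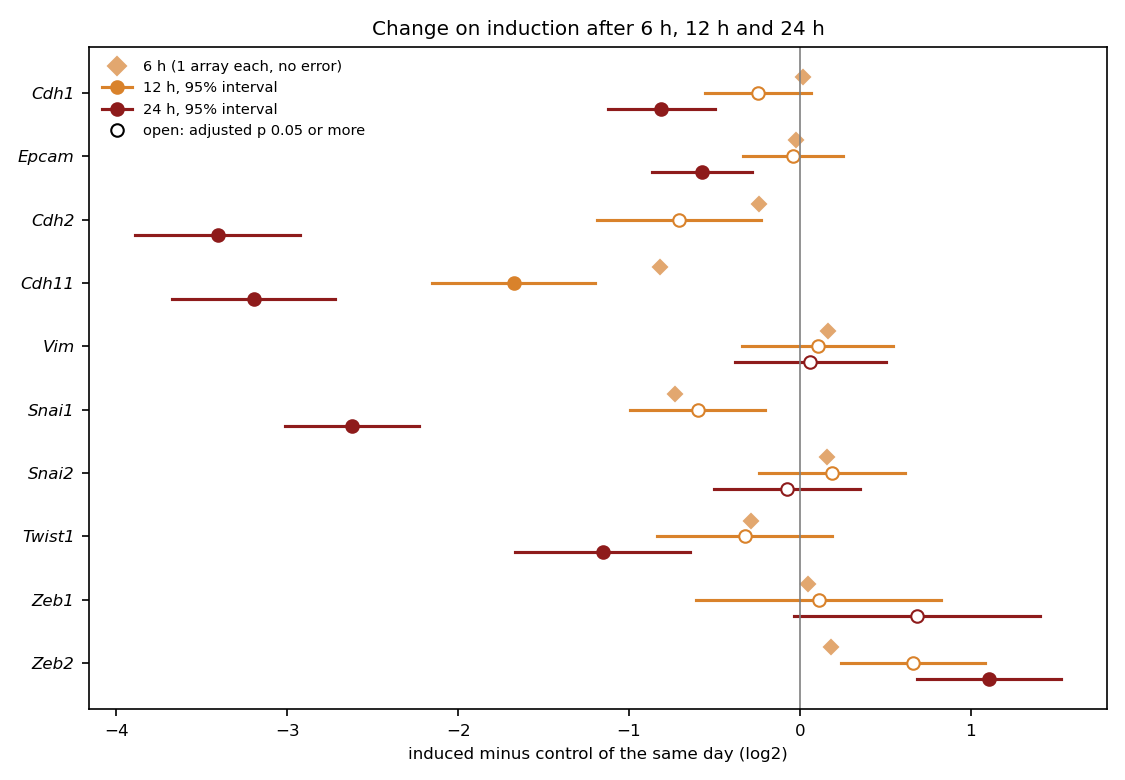
Induced minus control of the same day (log2, horizontal axis) for the 10 genes after 6 h (diamonds, 1 array in each group and no error), 12 h and 24 h (circles with 95% intervals; open where the adjusted p was 0.05 or more). Cdh2, Cdh11 and Snai1 lie farthest to the left at 24 h, and Cdh11 alone has a filled circle at 12 h.

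Snai1 encodes Snail, the zinc finger repressor of the streak. Cells induced for 24 h had signals of 5.71, 6.10 and 5.86, against 8.77, 8.66 and 8.10 in the day 3 control. The fall was 2.62 ± 0.184, or 6.15-fold (limma adjusted p = 6.52e-07). After 12 h the values were 6.55, 6.42 and 6.69, against 7.15, 6.96 and 7.34 in the control. These did not overlap, and the difference of -0.60 did not pass (adjusted p = 0.218).

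As with Cdh2 and Cdh11, the untreated cells gained Snai1, by 1.36 ± 0.184 on day 3 against day 2.5 (2.57-fold, limma adjusted p = 0.00211). Induced cells at 24 h had 0.66 less than at 12 h, without overlap, which did not pass (adjusted p = 0.104). The effect of induction was larger at 24 h than at 12 h by 2.02 ± 0.260 (adjusted p = 0.00358). Of all genes 0.426% passed this test of the change (0.100% higher and 0.326% lower), and of the 10 genes only Cdh2 and Snai1 did. For Snai1 that difference was not called without replicate 2 (0.169) or without replicate 3 (0.0613), and the gain in the controls was not called without replicate 2 (0.241). Cdh2, Cdh11 and Snai1 were the 3 genes of the 10 that passed between the control days, where 0.757% of all genes did (0.562% higher and 0.196% lower). Of the 10 genes, 6 were higher and 2 lower on day 3 than on day 2.5 without overlap of the control arrays (13.6% of all genes, 6.12% higher and 7.49% lower). Between induced cells of 24 h and 12 h, 4 of the 10 passed, with Zeb2 higher and Cdh1, Cdh2 and Epcam lower, where 1.81% of all genes did (0.557% higher and 1.25% lower). There the arrays did not overlap for 7 of the 10 genes, 3 higher and 4 lower (15.4% of all genes, 5.85% higher and 9.57% lower). The 24 h comparison and the comparison of control days share the day 3 control arrays.

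Twist1, a basic helix-loop-helix factor gene of cranial and limb mesenchyme, had signals of 5.38, 5.35 and 4.77 in cells induced for 24 h, against 6.77, 5.90 and 6.29 in the day 3 control. It fell by 1.15 ± 0.239, or 2.22-fold (limma adjusted p = 0.00874), and the groups did not overlap. This was not called without replicate 3 (-0.97, adjusted p = 0.205). At 12 h the groups overlapped, with 5.67, 5.40 and 5.33 in induced cells and 6.08, 5.39 and 5.90 in control cells.

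Snai2 encodes Slug, a relative of Snail that acts in the neural crest of chick and frog. Its signals lay between 4.70 and 5.17 in cells induced for 24 h and between 4.68 and 5.19 in the day 3 control, and the difference was -0.07 (95% interval -0.50 to 0.35). At 12 h it was 0.19 (-0.24 to 0.62). Its mean over the 14 arrays was under the 40th percentile of all genes, a range in which RMA understates changes.

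Zeb2, a zinc finger and homeodomain factor gene, was the one gene of the 10 that rose. Cells induced for 24 h had signals of 8.05, 7.41 and 7.21, against 6.46, 6.34 and 6.56 in the day 3 control, with no overlap. The rise was 1.11 ± 0.197, or 2.15-fold (limma adjusted p = 0.00286). It was not called without replicate 2 (1.12, adjusted p = 0.117). After 12 h the values were 6.69, 6.45 and 6.36 in induced cells, against 6.07, 5.73 and 5.71 in the day 2.5 control. The 12 h groups did not overlap. The difference of 0.67 ± 0.197 did not pass (adjusted p = 0.184), and passed with the replicate block (0.0373). Zeb2 also rose within induced cells, by 1.06 ± 0.197 at 24 h against 12 h (adjusted p = 0.0122), which was not called without replicate 2 (0.275), without replicate 3 (0.113) or in a fit of the compared groups alone (0.0958). The difference between the control days (0.62) did not pass (adjusted p = 0.305).

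Zeb1, the closest relative of Zeb2, spread widely in cells induced for 24 h. Its signals there were 7.20, 5.93 and 5.46, against 5.83, 5.27 and 5.43 in the day 3 control. The groups overlapped, and the difference of 0.69 ± 0.335 did not pass (limma adjusted p = 0.335, 95% interval -0.03 to 1.41). By replicate number the difference was 1.37 in replicate 1, 0.66 in replicate 2 and 0.03 in replicate 3, the only one of the line iB1. For Zeb2 the same differences were 1.60, 1.07 and 0.65. With 1 array of iB1 in each group, a difference between the lines and the spread between replicates cannot be told apart. At 12 h Zeb1 differed by 0.11 (-0.61 to 0.83). Within induced cells Zeb1 was 1.38 ± 0.335 higher at 24 h than at 12 h, without overlap, which did not pass (adjusted p = 0.0535). This passed under 5 of 11 alternatives, among them leaving out replicate 1 (0.97, 0.0167) or the induced 24 h array of replicate 3 (1.75, 0.0130).

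**Figure D3:**
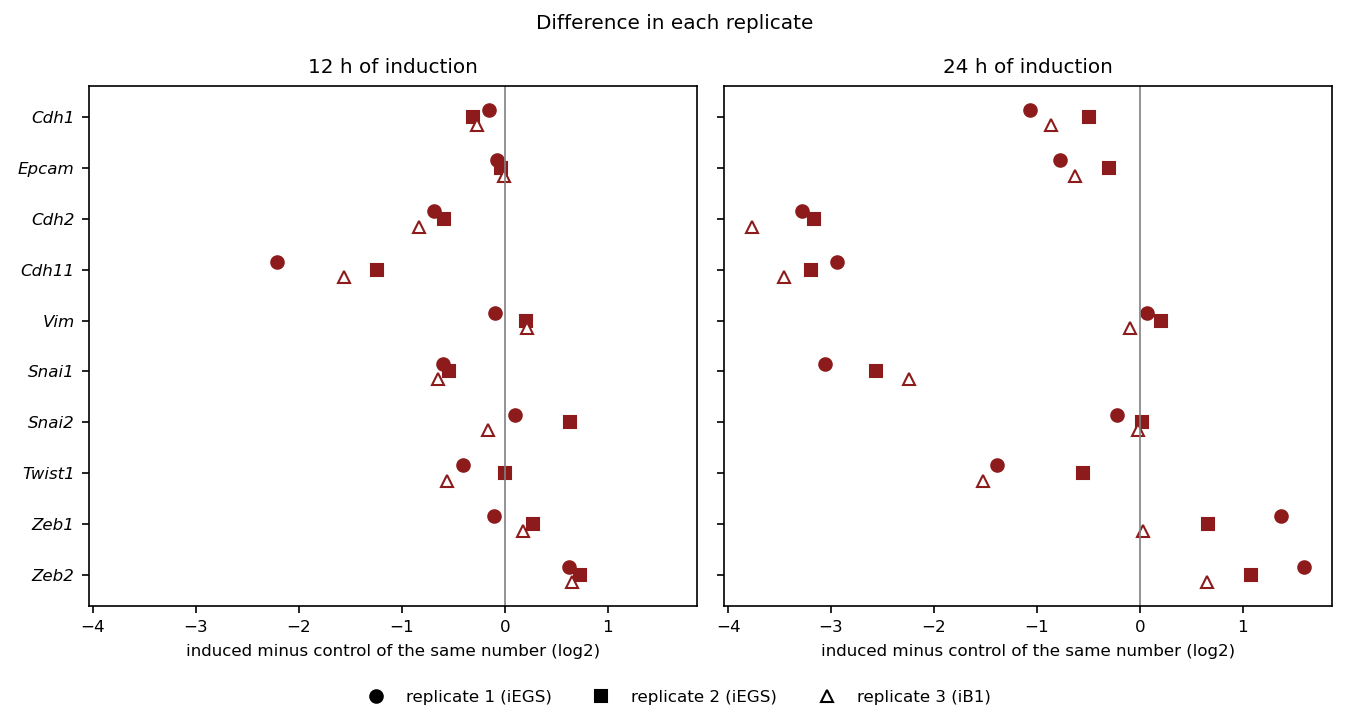
Induced minus control of the same replicate number (log2, horizontal axis) for the 10 genes after 12 h (left) and 24 h (right), with filled symbols for iEGS and open triangles for iB1. Cdh1, Cdh2, Cdh11, Epcam and Snai1 are below 0 in all 3 replicates at both times, with Epcam between -0.08 and -0.01 at 12 h. Zeb2 is above 0 in all 3 at both times, while Zeb1 at 24 h runs between 0.03 and 1.37.

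The promoter table of RefSeq (build GRCm38.p6) held 5 of the 10 genes: Epcam, Snai1, Twist1, Vim and Zeb2. The 250 bases before the annotated start are printed 5′ to 3′ on the gene's strand for Epcam and Snai1, which fell as an adhesion gene and a repressor gene, and for Zeb2, which rose. Capitals mark the E-box CAGGTG that Snail and Zeb factors bind, and the ETS core GGAAG, the kind of site that ER71 binds, on either strand (CACCTG and CTTCC are their reverse complements). These motifs do not overlap each other in the windows shown. The Zeb2 window is that of the most upstream of 4 annotated starts.
Epcam, chr17:87635729-87635978, plus strand: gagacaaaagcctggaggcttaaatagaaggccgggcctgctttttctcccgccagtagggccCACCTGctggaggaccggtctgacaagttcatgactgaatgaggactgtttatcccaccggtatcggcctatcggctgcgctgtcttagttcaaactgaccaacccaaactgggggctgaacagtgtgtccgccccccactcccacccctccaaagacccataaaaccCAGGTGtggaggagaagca
Snai1, chr2:167537945-167538194, plus strand: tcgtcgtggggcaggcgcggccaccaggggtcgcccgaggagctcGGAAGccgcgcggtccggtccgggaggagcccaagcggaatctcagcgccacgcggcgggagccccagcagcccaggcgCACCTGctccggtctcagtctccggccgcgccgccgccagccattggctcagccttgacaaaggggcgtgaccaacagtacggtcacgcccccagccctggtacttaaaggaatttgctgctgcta
Zeb2, chr2:45117443-45117692, minus strand: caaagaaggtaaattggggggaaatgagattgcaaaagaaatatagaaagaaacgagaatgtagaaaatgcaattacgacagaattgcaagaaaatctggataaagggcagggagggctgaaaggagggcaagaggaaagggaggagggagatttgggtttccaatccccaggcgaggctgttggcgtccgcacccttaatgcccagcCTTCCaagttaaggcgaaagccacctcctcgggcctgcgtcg

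CAGGTG stood in the Epcam window 2 times, at bases -187 to -182 and -19 to -14 before the start, and in the Snai1 window 1 time, at -126 to -121. It was not among the letters of the Twist1, Vim and Zeb2 windows. Of 32851 such windows of 27025 genes, 17.2% held CAGGTG at least once and 2.06% held it 2 times or more. GGAAG matched 3 times in the Vim window, 1 time in Snai1 (at -205 to -201) and 1 time in Zeb2 (at -42 to -38), and 64.1% of all windows held it. AGATA, a form of the site that GATA factors bind, matched in none of the 5 windows and in 26.6% of all windows. Other forms were not counted over all windows. The letters GATA alone do stand, on either strand, in the Epcam, Vim and Zeb2 windows, but how many of all windows hold them was not counted. These matches describe the letters only. Nothing here measured binding.

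The earliest arrays compared 6 h of induction with the day 2.25 control, 1 array each, so no test was made. None of the 10 genes differed 2-fold, as 0.356% of all genes did (0.221% higher and 0.135% lower). Cdh11 had a signal of 6.13 in the induced cells and 6.95 in the control cells, a difference of -0.82 (1.77-fold lower) that was larger in size than that of 99.3% of all genes. Snai1 had 6.24 in the induced cells and 6.97 in the control cells, a difference of -0.73 (1.66-fold lower, larger than 98.8% of genes). Cdh2 had 7.62 in the induced cells and 7.86 in the control cells (-0.24). The difference was -0.29 for Twist1, and for the other genes it was smaller in size, with Zeb2 at 0.18, Vim at 0.17, Snai2 at 0.16, Zeb1 at 0.05, Epcam at -0.02 and Cdh1 at 0.02.

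Among 16 other cadherin genes, 1 rose and 3 fell at 24 h. The riser was Cdh5, the endothelial cadherin gene, with 9.50, 9.02 and 8.43 in cells induced for 24 h, against 5.76, 5.52 and 5.42 in the day 3 control. Its rise of 3.42 ± 0.230 was 10.7-fold (limma adjusted p = 4.72e-07), and it had risen by 1.16 ± 0.230 at 12 h (adjusted p = 0.0178), a call lost without replicate 2 or without replicate 3. Cdh20 fell by 1.01, Cdh3, which encodes P-cadherin, fell by 0.71, and Cdh13, whose product lacks a transmembrane part, fell by 0.68 (adjusted p = 0.00156, 0.0156 and 0.00518). Of 6 catenin genes, 0 passed at 12 h or 24 h by limma, and Ctnnb1, which encodes beta-catenin, stood at -0.04 at 24 h. The whole list of 22 cadherin and catenin genes had 4 called at 24 h (18.2%, where 5.46% of all genes were called). The count was 2 without replicate 2, without replicate 3 or in a fit of the compared groups alone. With dim genes left out it was 2 as well, since Cdh20 and Cdh13 were then not tested. Cdh6 (-0.67) did not pass (limma adjusted p = 0.0905) but was called lower with the replicate block (0.0296) and after quantile normalization again (0.0384). It was also called without the induced 24 h array of replicate 3 (0.0176). The median of the list was 0.08.

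Of 36 measured genes for junctions, polarity and keratins, 7 fell and 2 rose at 24 h, with a median of -0.15. That is 25% of the list, where 5.46% of all genes were called. The fallers with the largest changes were Krt7, a keratin gene of simple epithelia (-1.46 ± 0.197, limma adjusted p = 0.000253), Perp (-1.03 ± 0.166) and Dsp (-0.97 ± 0.203), which encode desmosome proteins, and the claudin gene Cldn6 (-0.88). The risers were F11r, which encodes the junction molecule JAM-A (0.66 ± 0.143, adjusted p = 0.0125), and Tjp1, which encodes ZO-1 (0.65 ± 0.176, adjusted p = 0.0429). Endothelial cells carry both proteins too. F11r was higher by 0.54, 0.75 and 0.68 in replicates 1, 2 and 3, and Tjp1 by 1.02, 0.80 and 0.15. The count of 9 became 2 without replicate 2 (0 higher), 3 without replicate 3 (1 higher) and 4 in a fit of the compared groups alone (0 higher). Tjp1 was not called without replicate 1 either. Krt18, a keratin gene, was higher by 0.66 at 24 h, which did not pass (limma adjusted p = 0.0624). By replicate number it differed by -0.02, 1.07 and 0.92. The difference passed with the replicate block (0.0444), after quantile normalization again (0.0203) and without replicate 1 (0.00224), among other alternatives. Lower calls were gained too, for Cldn7 with the block (-0.51, adjusted p = 0.0309) and Patj without replicate 1 (-0.72, 0.0298). At 12 h 2 rose and 0 fell (5.56%, where 1.39% of all genes were called). These were Krt18 (0.98 ± 0.189) and the desmosomal cadherin gene Dsc2 (0.81). By replicate number Krt18 differed by 0.93, 1.03 and 0.98 at 12 h, and Dsc2 by 0.62, 1.27 and 0.55. At 12 h 0 of the list passed without replicate 2 or without replicate 3, where the change of Krt18 was 0.95 and 0.98. The replicate block called 3 at 12 h, adding the keratin gene Krt8 (0.73, adjusted p = 0.0173). Of 11 epithelial regulators, 1 fell at 24 h (9.09%), the splicing factor gene Esrp1 (-1.22 ± 0.164, limma adjusted p = 0.000244). Klf5 of this list did not pass at 24 h (limma adjusted p = 0.124). It was called higher after quantile normalization again (0.75, 0.0476) and without replicate 1 (0.98, 0.0048).

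Of 21 measured genes for mesenchymal matrix and motility, 2 fell and 0 rose at 24 h, with a median of 0.12. That is 9.52% of the list, where 5.46% of all genes were called. They were Vcan, which encodes the proteoglycan versican (-1.56 ± 0.313, limma adjusted p = 0.00703), and Tagln, an actin-binding protein gene (-0.99, adjusted p = 0.0340). Without replicate 2 or without replicate 3, 0 of them passed, and 1 passed without the induced 24 h array of replicate 3. After quantile normalization again 1 rose as well, the hyaluronan receptor gene Cd44 (0.44, adjusted p = 0.0312). At 12 h 0 of the 21 passed by limma without the block, and 2 were higher with it. These were Fn1, which encodes fibronectin (0.57, adjusted p = 0.0439 with the block and 0.820 without), and the matrix protease gene Mmp9 (0.93, 0.0453 with the block and 0.170 without). Both were higher in induced cells in all 3 replicates.

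Of 16 other EMT transcription factor genes, 4 fell and 0 rose at 24 h (25%, where 5.46% of all genes were called). These were Gsc, the organizer gene goosecoid (-2.05 ± 0.242, limma adjusted p = 7.89e-05), Hmga2 (-0.93), Sox4 (-0.73) and Foxc1 (-0.68, adjusted p = 0.0465). The count became 2 without replicate 1 or without replicate 2, where Sox4 and Foxc1 were not called. After quantile normalization again neither of them was called (adjusted p = 0.0554 for Sox4 and 0.0707 for Foxc1). Foxc1 was not called without replicate 3 (0.448) or with each array centred on its median (0.0601) either, among other alternatives. With the replicate block 5 were lower and 1 higher, adding Tcf4 (-0.51, adjusted p = 0.0306) and the forkhead factor gene Foxc2 (1.02, adjusted p = 0.0369, and 0.101 without the block). Foxc2 had signals of 6.68, 6.06 and 4.90 in cells induced for 24 h, against 4.73, 4.73 and 5.12 in the day 3 control. It was higher in both iEGS replicates and lower in the iB1 replicate. Without replicate 3 it was called higher (1.64, adjusted p = 0.00311), as it was without only the induced 24 h array of that replicate (1.51, 0.000811). At 12 h 0 of the 16 passed by limma without the block, and Gsc was lower with it (-0.96, adjusted p = 0.0182).

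**Figure D4:**
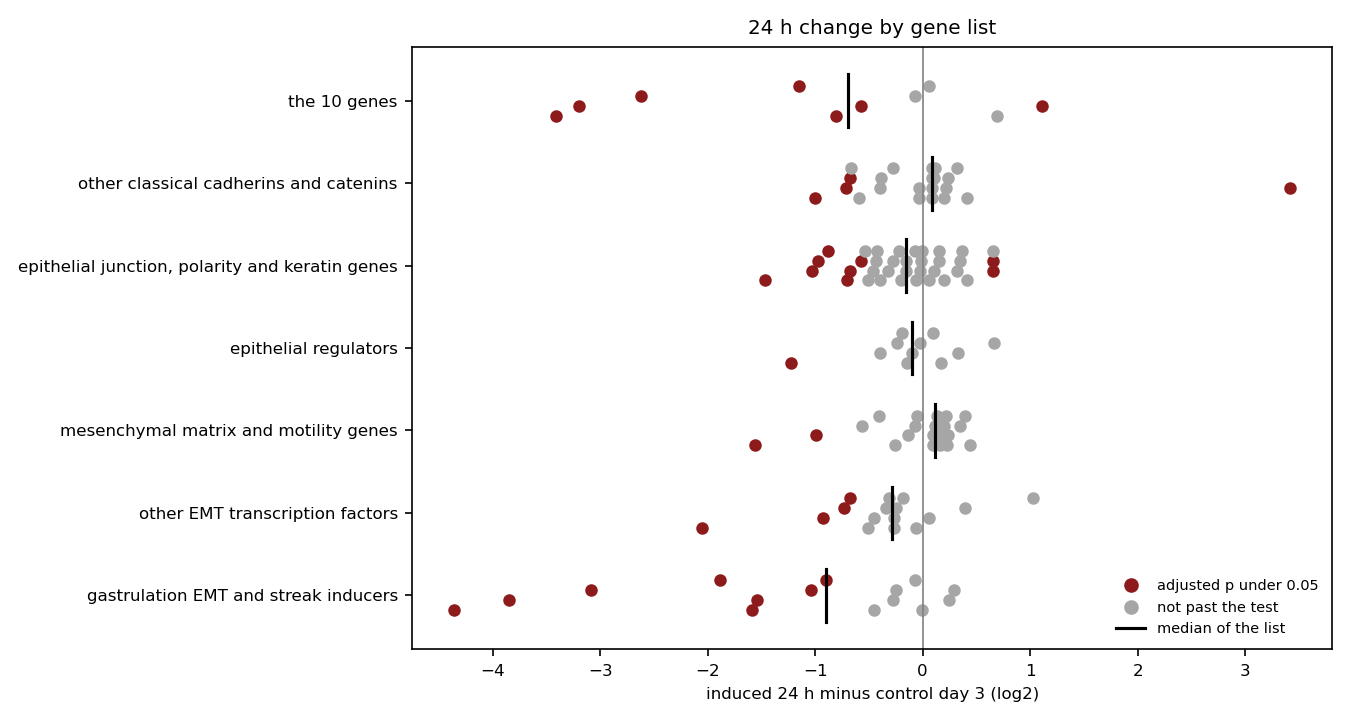
Change after 24 h of induction (induced 24 h minus control day 3, log2, horizontal axis) of each gene in 7 lists, in red where the adjusted p was under 0.05, with a bar at the median of each list. The streak list at the bottom reaches -4.36 with 8 of 15 genes called lower, and the single gene far to the right is Cdh5 at 3.42.

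The list of genes that drive the streak and its EMT held the largest falls. Of 15 measured genes, 8 fell and 0 rose at 24 h (53.3%, where 5.46% of all genes were called), with a median of -0.90. At 12 h 5 fell and 0 rose (33.3%, where 1.39% of all genes were called). Mesp1, a factor gene of the earliest cardiac mesoderm, was at 4.75 ± 0.345 after 24 h and 9.10 ± 0.245 in the day 3 control (SD, n = 3 each). Eomes, a T-box factor gene needed for ingression in the mouse, was at 7.14 ± 0.168 in induced cells and 10.22 ± 0.143 in control cells (SD, n = 3 each), a fall of 3.08 ± 0.202 (SE). Mixl1 fell by 3.84 and Mesp2 by 1.88. By limma, no adjusted p among these 4 was above 8.04e-06. Crb2 and Epb41l5, which act in the cells' ingression itself in the mouse, did not pass (0.29 and -0.07). The largest falls at 12 h were those of Mesp1 (-1.80, limma adjusted p = 0.00058) and Mixl1 (-1.74, 0.0017). The 12 h count of 5 became 3 without replicate 1, 2 without replicate 2 and 1 without replicate 3, where Mixl1 was not called. The lists were chosen with earlier results of these arrays known.

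Markers of other cell types were measured beside these changes, where 5.46% of all genes were called at 24 h. Of 12 fibroblast markers, 1 rose at 24 h (Thy1, 0.98) and 0 fell, and their mean signal per array ranged from 4.70 to 5.10 in cells induced for 24 h and from 4.69 to 4.96 in the day 3 control. Thy1 was not called without replicate 2, without replicate 3, or without the induced 24 h array of replicate 3, and with the block it was higher at 12 h too (1.02, adjusted p = 0.00176). Of 8 endothelial markers 4 rose (Tek, Cdh5, Esam and Erg), with mean signals of 6.47 to 7.14 in induced cells and 4.98 to 5.14 in control cells. With the replicate block 6 were higher, adding Pecam1 (0.81, adjusted p = 0.00442) and Kdr (0.62, 0.0210). At 12 h 5 of the 8 rose and 0 fell (62.5%, where 1.39% of all genes were called). Kdr (1.96, limma adjusted p = 0.00079) and Esam (1.88, 8.8e-05) changed most there. Without replicate 2 the 12 h calls of Kdr, Cdh5, Tek and Erg were lost. The day 3 control of Kdr, at 7.37, 6.77 and 7.11, was higher than that of day 2.5, at 5.26, 4.97 and 4.96. Of 8 ES cell markers, 3 fell at 24 h (Tdgf1, Nanog and Pou5f1) and 1 rose (Tbx3). Their mean signals were 7.67 to 8.18 in induced cells and 8.39 to 8.77 in control cells. The 4 calls became 2 without replicate 2 or without replicate 3. At 12 h 2 fell (Nanog, -1.62, and Tdgf1, -0.64) and 1 rose (Tbx3, 1.26), which is 37.5% of the list. The 12 h call of Tdgf1 was lost whichever replicate was left out, and that of Tbx3 without replicate 3. Of 8 visceral endoderm markers 0 passed by limma at 12 h or 24 h. At 24 h their mean signals were 4.70 to 5.01 in induced cells and 4.78 to 4.92 in control cells. The largest 24 h changes were those of Foxa1 (-0.67, limma adjusted p = 0.077) and Ttr (0.27, 0.656). Foxa1 was called lower with the block (adjusted p = 0.0374) and after quantile normalization again (0.0126). RMA values have no zero, so no marker can be called absent. The part of endothelial and ES cell shares in the changes of the 10 genes was not tested.

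The genes whose pattern was most like that of each member were found by the root mean square (RMS) difference of centred log2 values over the 14 arrays, for the 7 members whose group means spanned 1 or more. Cdh2 was closest to Slit2 (RMS difference 0.342), Sp5 (0.388) and Snai1 (0.404), where its own RMS spread was 1.18. Cdh11 was closest to Sp5 (0.335), Itga8 (0.338) and Nme5 (0.411), with a spread of 1.28. Snai1 was closest to Sp5 (0.348), Itga8 (0.350) and Slit2 (0.353), with a spread of 0.935. Sp5 was thus among the nearest 3 of each of these genes. Zeb2 was closest to Unc5c (0.182), Nfatc1 (0.192) and Flt1 (0.195), with a spread of 0.671. Zeb1 was closest to Tgfbr3 (0.274), Tnik (0.294) and Foxc2 (0.302), with a spread of 0.683. Twist1 was closest to Gucy1a2 (0.155), Piezo2 (0.173) and Asxl3 (0.180), and Cdh1 to Klf9 (0.117), Ldhb (0.131) and Gli2 (0.132).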

How the data were processed

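Each of 14 samples was hybridised to its own Affymetrix array. The deposited log2 values of 35556 probe sets came from the authors' RMA step, and the submitters' processing notes name Affymetrix Expression Console without a version. RMA gives arrays a nearly common distribution (SD across genes of 1.91 to 2.23 here), which hides a shift common to most genes. It also understates changes of dim genes. Through the platform annotation 21789 probe sets had 1 symbol, 1621 had several and 12146 were not listed. The probe set of highest mean stood for a gene.

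One limma fit (version 3.58.1, R 4.3.3) covered the 12 arrays of day 2.5 and day 3 (group means, 8 residual and 6.05 prior degrees of freedom, Benjamini-Hochberg over 19938 genes). Day 2.25 had no replicates. The design text speaks of independent experiments. Replicate 3 is of another line and so of another culture, but the labels name no separate cultures for replicates 1 and 2. The spread between replicates 1 and 2 may thus be partly technical. Arrays of the same replicate number deviated together within a day (correlations of 0.262 to 0.573 at 12 h and 0.158 to 0.517 at 24 h), so a second fit took the numbers as pairs (the replicate block), while every call not said to use the block comes from the fit without pairs. For induced 24 h replicate 3 the correlation with another number was higher (0.375) than with its own (0.261). Between the control days and between the induced times the lowest same-number correlations were 0.041 and -0.0047, under the limit of 0.1. Those of replicate 1 were 0.556 and 0.511. Named genes are all members and, from each list, up to 4 genes called in a direction at 24 h and 2 at 12 h with the largest changes, or 2 where none was called. Crb2, Epb41l5, Ctnnb1, Cdh6, Krt8, Cldn7, Patj, Klf5, Fn1, Mmp9, Cd44, Tcf4, Foxc2 and Pecam1 were chosen after their values were seen. The members and lists were chosen with earlier results of these data known. Of 168 list symbols 161 were measured, Pals1 under its older name Mpp5. Alternatives were the replicate block, only the compared groups, each replicate left out, replicate 3 of the induced 24 h group left out, quantile normalization again, median centring, dim genes left out, the mean of probe sets and an intensity trend. The mean of probe sets leaves the members' values as they are, since each has 1 probe set. Leaving out the induced 24 h array leaves the 12 h values as they are. In those fits a member's call can move only through the spread or the adjustment over all genes.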

Additional observations from a re-analysis of the deposited data

Results flagged for a closer look

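The effect of induction differed between 12 h and 24 h by a test of the difference itself for 2 of the 10 genes. For Cdh2 it was -2.70 ± 0.317 (limma adjusted p = 0.00211), lower in induced cells in all 3 replicates at both times. For Snai1 it was -2.02 ± 0.260 (adjusted p = 0.00358), also lower in all 3 replicates at both times. Without replicate 2 or without replicate 3 neither passed. Of all genes, 0.426% passed this test. The test takes in the change of the controls from day 2.5 to day 3, which was 1.72 for Cdh2 and 1.36 for Snai1. Within induced cells 24 h minus 12 h was -0.98 for Cdh2 and -0.66 for Snai1. The latter did not pass (limma adjusted p = 0.104). Groups of 3 arrays were not tested for a single outlying array.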

How the results depend on the processing

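Of 1066 recomputed changes of single genes, 950 kept direction and side of the threshold, 91 lost their call, 17 gained one and 8 changed sign. At 24 h the calls of Cdh2, Cdh11 and Snai1 held under all 11 alternatives, with adjusted p of 0.000929 or lower. Of the 10 genes, 1 was called at 12 h, 2 after quantile normalization again (Zeb2 added) and 3 with the replicate block, and 1 in each fit that left out a replicate. At 24 h 7 were called, and 4 to 6 when a replicate was left out (4 without replicate 3). Between the control days it was 3, and 0 to 3 when a replicate was left out. Between the induced times it was 4, 0 in a fit of the compared groups alone and 0 to 4 when a replicate was left out. Between the effects at 12 h and 24 h it was 2, and 0 to 3 when a replicate was left out. The sign changed for the following, none called: Snai2 at 12 h (-0.030 without replicate 2, to 0.37 without replicate 3), at 24 h (0.00090 without replicate 1, to -0.23 without the induced 24 h array of replicate 3) and between the induced times (-0.0020 without the induced 24 h array of replicate 3, -0.14 without replicate 3, to 0.45 without replicate 2), Vim at 24 h (-0.013 without replicate 2, to 0.14 without the induced 24 h array of replicate 3) and in the change of its effect (0.039 without the induced 24 h array of replicate 3, 0.085 without replicate 3, to -0.15 without replicate 1), and Cdh11 between the induced times (-0.14 without replicate 1, to 0.29 without replicate 3). The cause of these moves was not tested, though a fit without a replicate has fewer arrays. Over all genes, the counts were 277 at 12 h (441 with the block, 80 without replicate 2, 103 without replicate 3), 1088 at 24 h (669 in a fit of the compared groups alone, 392 without replicate 2, 476 without replicate 3), 151 between the control days (344 with the block, 21 without replicate 2, 17 without replicate 3), 360 between the induced times (742 with the block, 100 in a fit of the compared groups alone, 21 without replicate 2, 53 without replicate 3) and 85 between the effects (163 with the block, 130 after quantile normalization, 4 without replicate 2, 2 without replicate 3). Across days the lowest same-number correlations were under the limit of 0.1. There the block also called Vim between the control days (0.64, adjusted p = 0.0157). Between the induced times it called Vim and Zeb1 (0.60 and 1.38, adjusted p = 0.0155 and 0.00202). Snai2 was left out with dim genes. At 6 h, 0 of the 10 reached a 2-fold difference under the 3 alternatives that apply, of which the mean of probe sets could not change their values.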

Other observations

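The miR-200 family represses Zeb1 and Zeb2 in epithelial cells, and the array holds probe sets for the precursor genes of 4 of its members with 1 symbol each. They were looked at after the values of Zeb1 and Zeb2 were seen. Between cells induced for 24 h and the day 3 control, Mir200a differed by -0.03 ± 0.171, Mir200b by -0.0040 ± 0.131, Mir141 by -0.11 ± 0.192 and Mir200c by 0.34 ± 0.260, and none passed (lowest limma adjusted p = 0.574). Their mean signals were dim, with 28.1% of all genes or fewer below them, and precursor signals on this array do not measure the mature miRNAs.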
